A study of Danio rerio with 6 samples.

Results

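The tectorin and otolith matrix genes are a small set of genes for the extracellular material of the fish ear. They were taken by name from the deposited gene table as tecta, tectb, otomp, stm, oc90, otogl, otog, otop1, zpld1a and cochb. Of these 10 names, 9 had a row of that symbol among the 37685 genes of the table, and cochb was not analysed here. Rows that carried a symbol with a numeric suffix (otogl and otogl_1, for example) were summed per gene. RNA came from whole zebrafish larvae at 72 hours post fertilization (hpf), with 3 libraries of wild-type AB fish as controls and 3 of AB larvae that had received a GJB2 morpholino as 1-cell embryos. GJB2 encodes a gap junction protein known for its role in hearing, and the series title places the question in hereditary deafness. Pool sizes and clutches are not given in the labels. The p-values therefore measure the spread among libraries of unknown origin, and this spread may be technical. A control oligonucleotide group was not analysed here, so the effect of the injection and that of the target sequence cannot be told apart.

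The sensory cells of the ear work against an extracellular load. In fish this load is the otolith, a calcium carbonate stone that grows on a protein scaffold and is held over the hair cells by a fibrous gel, while a gelatinous cupula covers the hair cells of the semicircular canals. In mammals the related gel of the cochlea is the tectorial membrane. The set covers both materials. Alpha-tectorin (tecta), beta-tectorin (tectb), otogelin (otog), otogelin-like (otogl) and the zona pellucida domain protein zpld1a belong to the gels, starmaker (stm), otolith matrix protein (otomp) and otoconin 90 (oc90) to the stone, and otopetrin 1 (otop1) is a proton channel that otolith growth needs.

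The agent that separates the groups is the morpholino itself, a synthetic oligonucleotide that binds RNA. Its sequence is shown with the complement of an ATG codon in capitals, at bases 18 to 20 of 25 counted from the 5′ end.
GJB2-MO: taaagtgctccccaactCATcctgt
The connexin gene gjb8 was taken as a candidate for the target, without a match to the morpholino sequence. Its first row was listed at 0 in all 6 libraries. Its second row had counts of 7, 8 and 11 for controls against 114, 14 and 16 for morpholino larvae. Morpholino library 1 stood far above the others, and gjb8 was not called (log2 fold change 2.29 ± 1.03 (SE), edgeR adjusted p = 0.288). Translation can be blocked without loss of the RNA, so gjb8 gives no check of the labels. Total counts ranged from 14582030 to 19743658 per library. Of 22247 genes tested, 1378 were called (6.19%), with 2.88% of all tested genes called higher in the morpholino libraries and 3.31% called lower. The median log2 fold change over all tested genes was 0.0088. Of 33 hair cell genes and 26 otic epithelium genes found in the table, 30 and 24 passed the filter on low counts. None was at 0 in all libraries, but atoh1a held only 1, 1 and 0 counts in controls and 1, 0 and 0 in morpholino larvae. Whole-larva RNA does not tell which tissue the reads of these genes came from.

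Among the 8 tectorin and otolith matrix genes that passed the filter on low counts, tecta fell and the other 7 did not pass the test. Its level dropped to 0.386 of that of the controls. The 2 abundant otolith genes, stm and otomp, stood near 100 TPM (transcripts per 1000000, a level corrected for gene length) in both groups. The test was edgeR's quasi-likelihood test across all genes, and a gene was called at a Benjamini-Hochberg adjusted p under 0.05. None of the 8 genes was called higher, and at an unadjusted p under 0.05 the count was again 0 higher and 1 lower. At that threshold 21.7% of all tested genes passed, 10.5% higher and 11.3% lower, and the unadjusted counts of the lists below are to be read against these shares. The called counts of the 8 genes and of the lists are to be read against the 3.31% of all tested genes called lower and the 2.88% called higher. DESeq2 and limma each also called 1 gene lower and 0 higher. The median log2 fold change of the 8 genes was -0.03.

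The levels of the genes spanned more than 2 orders of magnitude. In the controls, stm ranged from 112 to 116 TPM and otomp from 93.5 to 111 TPM. These 2 genes held between 91.1% and 92.4% of the summed TPM of the 9 genes in every library. The gene tectb ranged from 5.62 to 6.17 TPM, otop1 from 4.34 to 6.20, tecta from 2.72 to 4.90 and zpld1a from 2.31 to 2.86, and each of these neighbours in the order overlapped the next. Below them came otog at 1.67 to 2.14 TPM, otogl at 0.540 to 0.763 and oc90 at 0.270 to 0.452, with no overlap between neighbours.

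In the morpholino libraries the order differed in the place of tecta. It ranged from 1.27 to 1.44 TPM there, below zpld1a at 1.98 to 2.92 and otog at 2.06 to 2.18, whereas in the controls it lay above otog and overlapped zpld1a. The genes stm (98.7 to 110 TPM) and otomp (97.5 to 100 TPM) overlapped in these libraries. The summed TPM of the 9 genes was between 227.9 and 246.8 in the controls and between 215.4 and 227.5 in the morpholino libraries. These ranges came close without overlapping.

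**Figure D1:**
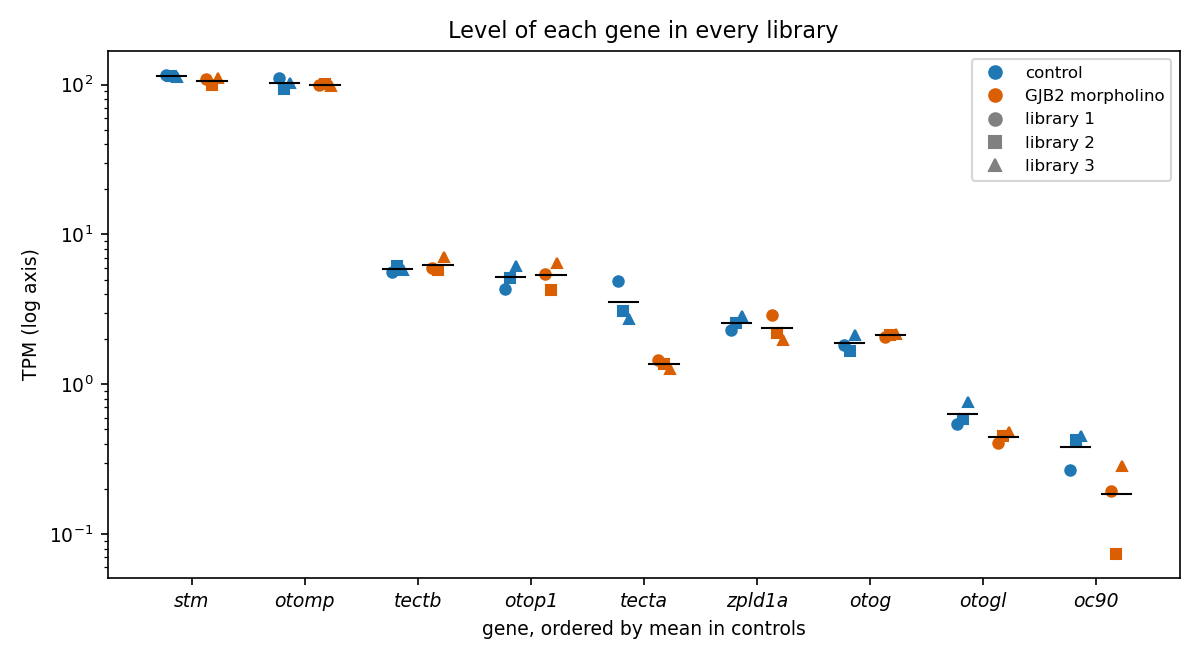
TPM of each gene on a log axis in the 3 control libraries (blue) and the 3 morpholino libraries (orange), with the mean of each group as a bar and the library number as the marker shape. stm and otomp lie near 100 TPM, the other genes lie under 8 TPM, and tecta is the gene whose groups stand farthest apart among those above 1 TPM in controls.

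The gel gene tecta encodes alpha-tectorin, the large protein of the mammalian tectorial membrane whose human gene is mutated in inherited deafness and which zebrafish larvae need to tether their otoliths. It lies on chromosome 5 at 63176435 to 63236572 on the minus strand (GRCz11, as are all positions below). Its counts were 355, 249 and 220 in control libraries 1 to 3 and 127, 135 and 98 in morpholino libraries 1 to 3. As TMM-scaled CPM (counts per 1000000 counts of a library), the controls stood at 24.6, 15.0 and 13.1 and the morpholino libraries at 7.02, 7.04 and 6.18. Every morpholino library lay below every control, and control library 1 stood well above the other two controls.

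The mean of tecta was 17.5 ± 6.16 CPM in controls and 6.74 ± 0.491 CPM in morpholino larvae (SD, n = 3 per group), so its coefficient of variation was 35.1% in the former and 7.28% in the latter. The log2 fold change was -1.37 ± 0.24 (SE), with a 95% interval of -1.92 to -0.83 and an adjusted p of 0.0176 (edgeR). Without control library 1 it was -1.06 (adjusted p = 0.00472). The call was lost without any single morpholino library, with log2 fold changes of -1.40, -1.41 and -1.32 and adjusted p of 0.0786, 0.0858 and 0.0830 without libraries 1, 2 and 3. In whole-larva RNA, fewer cells that express a gene and less RNA per cell cannot be told apart.

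**Figure D2:**
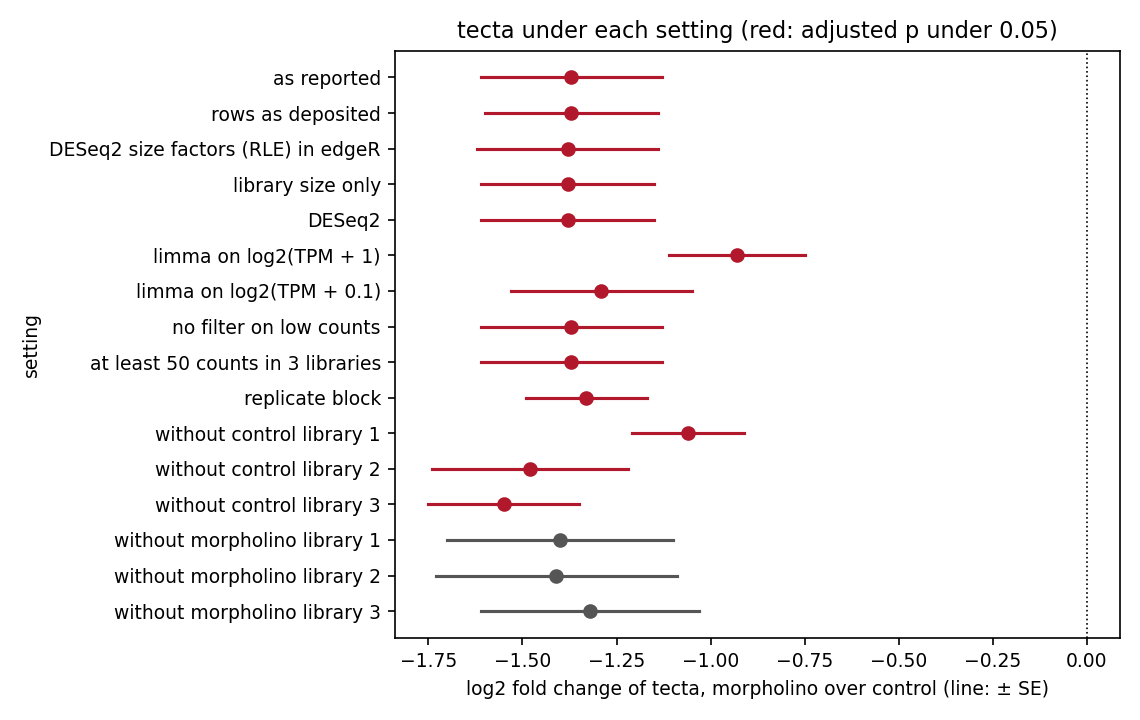
Log2 fold change of tecta, morpholino over control, with its SE, as reported and under 15 other settings, in red where the adjusted p was under 0.05. All 16 values lie below 0, between -1.55 and -0.93, and the 3 grey values are those without a morpholino library.

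The tested genes that lie next to tecta on chromosome 5 did not share its drop. The 3 on its lower side were timm22 (log2 fold change -0.08 ± 0.15), tlcd3a (-0.15 ± 0.10) and usp2b (-0.09 ± 0.12), and none passed. On its upper side tbcelb (0.18 ± 0.09) and ttf1.6 (0.12 ± 0.18) did not pass, and gsnb, a gelsolin gene, rose by 0.37 ± 0.10 (edgeR adjusted p = 0.0492). Leaving out control library 3 kept the gsnb call (adjusted p = 0.0208), and leaving out each of the other 5 ended it (adjusted p between 0.105 and 0.156). With all libraries kept, it was also lost with library size only (adjusted p = 0.0586) and in limma with either pseudocount (0.114 and 0.116). These neighbours were chosen by position after the value of tecta was known.

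The genes whose pattern over the 6 libraries was most like that of tecta were txndc16, faub, polr2eb, ppargc1a and faimb. They had Pearson correlations of 0.989 to 0.997 with tecta in log2 CPM, among 15604 genes whose mean CPM was 5 or more, and with 6 libraries in 2 groups such values describe the ranking only. Like tecta, all 5 were highest in control library 1, which their choice by this correlation favours. Their changes were smaller. faub fell by 0.50 ± 0.10 on the log2 scale (edgeR adjusted p = 0.0147), and the others stood at -0.22, -0.10, -0.23 and -0.44 and did not pass. The row named faub alone did not pass the filter on low counts, so the faub call depends on the suffix rows summed with it.

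Beta-tectorin, the product of tectb, is the partner of alpha-tectorin in the tectorial membrane of mammals. The gene lies on chromosome 12 at 31476167 to 31494333 on the minus strand. Its CPM was 6.16, 6.57 and 6.06 in controls and 6.35, 6.51 and 7.56 in morpholino larvae. The groups overlapped, and the log2 fold change was 0.12 ± 0.15 (95% interval -0.21 to 0.45, edgeR adjusted p = 0.704). Within a library, the TPM of tecta was 0.873, 0.500 and 0.472 of that of tectb for the controls and 0.242, 0.236 and 0.179 for the morpholino libraries. The log2 ratio fell by 1.44, with no overlap, at an exact two-sided permutation p of 0.1, the smallest that 3 against 3 libraries can give. It was 1 of 4 such ratios compared (adjusted p = 0.133). Against the stone gene stm the ratio of tecta was 0.0421, 0.0269 and 0.0242 for controls and 0.0132, 0.0138 and 0.0115 for morpholino larvae, again with no overlap (exact two-sided permutation p = 0.1, adjusted p = 0.133). Both ratios reuse the tecta values tested above, so they are not separate evidence. No such ratio test can reach a p under 0.05 with 3 against 3 libraries.

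The 2 otogelin genes encode large mucin-like proteins of the gels, both mutated in human hearing loss, and zebrafish otogelin is needed to tether otoliths. otog (chromosome 7, 39463047 to 39537377, minus strand) stood at 12.1, 10.7 and 13.5 CPM in controls and 13.1, 14.5 and 14.0 in morpholino larvae. Its ranges overlapped, with a log2 fold change of 0.20 ± 0.12 (95% interval -0.06 to 0.46, edgeR adjusted p = 0.374). otogl (chromosome 18, 6154840 to 6265491, plus strand) stood at 2.98, 3.13 and 4.04 CPM in controls and 2.15, 2.55 and 2.58 in morpholino larvae. These ranges did not overlap, but the log2 fold change of -0.48 ± 0.22 did not pass (95% interval -0.97 to 0.01, edgeR adjusted p = 0.242). The TPM ratio of otogl to otog was 0.294, 0.351 and 0.357 for controls and 0.196, 0.21 and 0.221 for morpholino larvae, without overlap (exact two-sided permutation p = 0.1, adjusted p = 0.133).

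The value of otogl depended on which of its rows was read. The row named otogl held 9, 14 and 31 counts in controls and 19, 23 and 20 in morpholino larvae, while otogl_1 held 34, 38 and 37 and then 20, 26 and 21. Tested as separate rows, otogl stood at 0.07 ± 0.42 (edgeR adjusted p = 0.944) and otogl_1 at -0.85 ± 0.27 (adjusted p = 0.0819). The share of the gene's counts in otogl_1 was 79.1%, 73.1% and 54.4% for controls and 51.3%, 53.1% and 51.2% for the morpholino libraries. Control library 3 was thus close to the morpholino libraries in this share, and controls 1 and 2 stood above them.

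The gene zpld1a encodes a zona pellucida domain protein whose mouse relative is a component of the canal cupula. It lies on chromosome 10 at 29112756 to 29121211 on the minus strand. It stood at 3.53, 3.62 and 4.16 CPM in controls and 4.59, 3.54 and 2.84 in morpholino larvae, with morpholino library 1 the highest and morpholino library 3 the lowest of the 6. The log2 fold change was -0.04 ± 0.22 (95% interval -0.52 to 0.44, edgeR adjusted p = 0.938). Its rows differed in sign, with zpld1a alone at 0.30 ± 0.37 and zpld1a_1 at -0.55 ± 0.32. Neither row passed, and the difference between them was not tested.

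**Figure D3:**
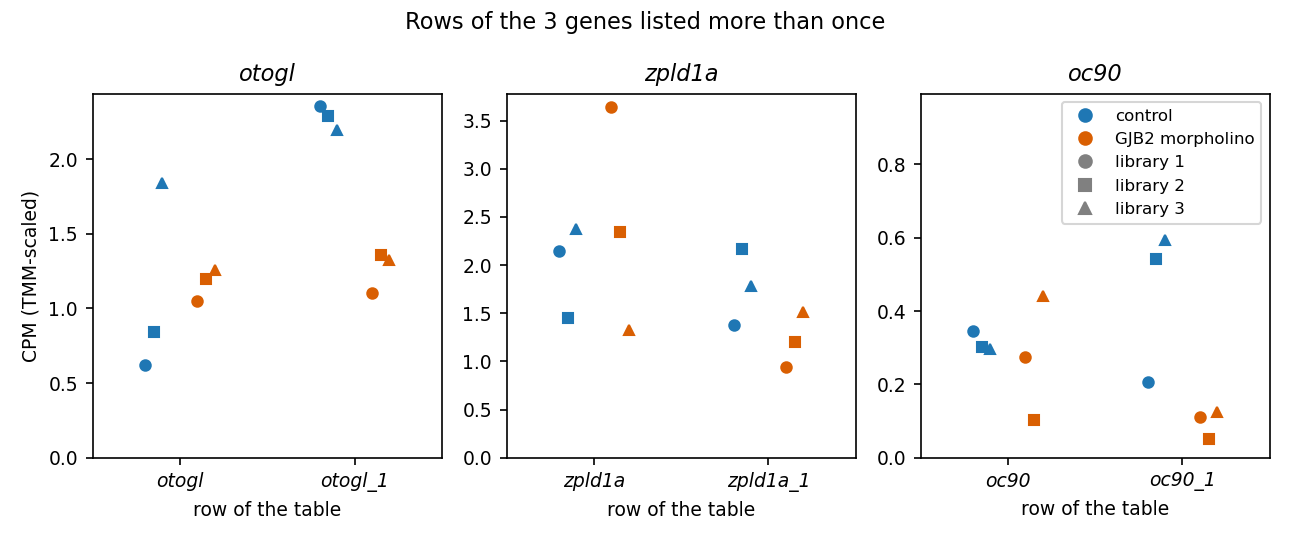
TMM-scaled CPM of each row of the 3 genes listed more than once, in control (blue) and morpholino (orange) libraries, from an axis start of 0. In otogl the groups overlap in the first row and not in otogl_1, where controls lie between 2.2 and 2.35 and morpholino libraries between 1.1 and 1.35.

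The abundant stone genes stm and otomp did not change detectably, and their intervals were the narrowest of the 8. Starmaker, the product of stm, is an acidic protein that sets the crystal form and shape of the zebrafish otolith. The gene (chromosome 19, 3137518 to 3167715, minus strand) held between 3363 and 3908 counts per library. It stood at 233, 223 and 216 CPM in controls and 212, 204 and 215 in morpholino larvae. The ranges did not overlap by a small margin, and the log2 fold change was -0.09 ± 0.06 with a 95% interval of -0.23 to 0.04 (edgeR adjusted p = 0.434). In linear terms the interval ran from 0.854 to 1.03 of the control level.

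Otolith matrix protein is among the main proteins of the fish otolith and is needed for its growth. Its gene otomp (chromosome 2, 41504752 to 41518340, minus strand) stood at 80.1, 65.8 and 71.3 CPM in controls and 70.1, 75.2 and 68.8 in morpholino larvae. The groups overlapped, and the log2 fold change was -0.02 ± 0.08 (95% interval -0.20 to 0.16, edgeR adjusted p = 0.920). The TPM ratio of otomp to stm was 0.95, 0.815 and 0.911 in controls and 0.913, 1.02 and 0.885 in morpholino libraries, so these ranges overlapped too (exact two-sided permutation p = 0.5, adjusted p = 0.5).

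Otoconin 90, a phospholipase-like protein of mammalian otoconia that takes part in otolith seeding in zebrafish, was near the limit of detection. Its gene oc90 lies on chromosome 2 at 42942552 to 42960352 on the minus strand. Both of its rows together held 8, 14 and 15 counts in controls and 7, 3 and 9 in morpholino larvae. It did not pass the filter on low counts. With no filter it stood at -1.06 ± 0.56 (edgeR adjusted p = 0.340), between -1.49 and -0.69 in the 4 fits with a library left out that kept it (adjusted p between 0.240 and 0.501), and the CPM ranges of the groups, 0.554 to 0.891 and 0.156 to 0.567, overlapped.

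The gene otop1 encodes otopetrin 1, the proton channel without which mouse and zebrafish ears lack mineralized particles. It lies on chromosome 14 at 49520 to 58449 on the plus strand. It stood at 4.29, 4.94 and 5.88 CPM in controls and 5.19, 4.38 and 6.18 in morpholino larvae. The groups overlapped throughout, and the log2 fold change was 0.05 ± 0.19 (95% interval -0.37 to 0.48, edgeR adjusted p = 0.908).

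In all, 3 of the 8 tested genes (tecta, otogl and stm) had lower morpholino values with no overlap between groups, and 0 had higher values with no overlap. Among all tested genes, 14.1% were lower without overlap and 13.7% were higher without overlap. Of the 3, tecta alone was called.

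**Figure D4:**
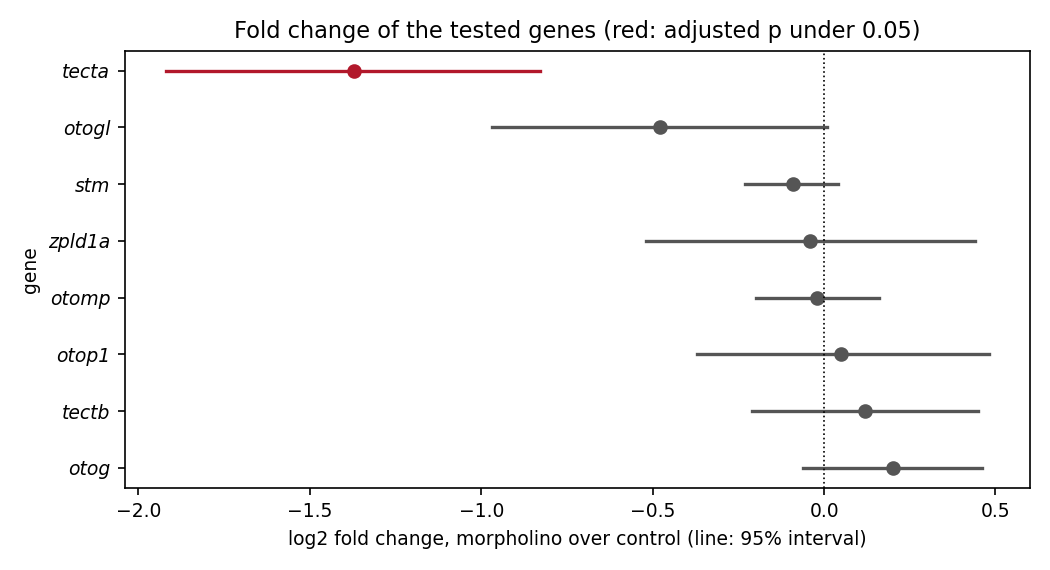
Log2 fold change of the 8 tested genes, morpholino over control, with the 95% interval as a line and called genes in red. The interval of tecta runs from -1.92 to -0.83 and excludes 0, and the other 7 intervals include 0.

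Other genes of the otolith and its gels were read from a list of 15 symbols, of which 11 were found and tested. Of these, 2 fell and 0 rose, with a median log2 fold change of -0.09. At an unadjusted p under 0.05 there were 3 lower and 0 higher, and DESeq2 and limma also called 0 higher. otoa encodes otoancorin, which in mice anchors the gels of the inner ear to non-sensory cells. It stood at 38.5, 37.0 and 34.8 CPM in controls and 27.1, 27.3 and 24.7 in morpholino larvae, with no overlap, and fell by 0.48 ± 0.08 on the log2 scale (edgeR adjusted p = 0.00699). cdh11, a cadherin gene of mesenchyme that also has a role in zebrafish otoliths, stood at 90.0, 90.4 and 90.6 CPM and then 63.0, 68.2 and 72.0, a drop with no overlap. Its log2 fold change was -0.42 ± 0.07 (edgeR adjusted p = 0.00550).

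The remaining 9 genes of that list did not pass the test, and all are given here. The cochlin gene coch, whose human form is mutated in deafness, stood at 30.2 ± 1.68 CPM in controls and 33.1 ± 2.90 in morpholino larvae (0.13 ± 0.09, edgeR adjusted p = 0.427). The otolins, collagen-like otolith proteins, stood at 0.38 ± 0.43 for otol1a and -0.29 ± 0.29 for otol1b. sparc, a matrix protein gene of bone and otolith, was abundant at 1542 ± 32.3 and 1581 ± 44.1 CPM (0.04 ± 0.06). zpld1b, the duplicate of zpld1a, stood at 0.30 ± 0.28, and the stereocilin gene strc1 at 0.21 ± 0.16. otop2, an otopetrin relative of otop1, was lower without overlap, at 5.22 ± 0.337 CPM in controls and 3.31 ± 0.840 in morpholino larvae (-0.65 ± 0.21, edgeR adjusted p = 0.0984). The matrilin gene matn4 was also lower without overlap (-0.09 ± 0.07), and the tenascin gene tncb stood at -0.47 ± 0.37 with overlap.

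Of 17 tested genes for otolith secretion and ion transport, 1 fell and 0 rose, with a median log2 fold change of -0.01. At an unadjusted p under 0.05 there were 5 lower and 1 higher. DESeq2 called 1 lower and limma 0. The gene was hsp90b1, which encodes a chaperone of the endoplasmic reticulum, at -0.29 ± 0.07 (edgeR adjusted p = 0.0444). The call held when morpholino library 2 was left out and ended with each of the other 5, and the first row alone stood at 0.21.

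Some matrix genes shared with other tissues fell, and others did not pass. Of 13 tested genes of the semicircular canal matrix, 3 fell and 0 rose, with a median of -0.30, and these were acana (aggrecan, -0.56 ± 0.11), hapln1a (link protein, -0.35 ± 0.09) and vcanb (versican, -0.23 ± 0.06), with edgeR adjusted p of 0.0174, 0.0436 and 0.0446. Without control library 2 none of these 3 held (edgeR adjusted p = 0.0506, 0.123 and 0.101). The 1 gene called in that fit was another of the list. Leaving out control library 3 or morpholino libraries 1 or 3 left 0 calls. The cartilage list includes acana, hapln1a and matn4 from the lists above. Of its 25 genes, 13 fell and 0 rose, with a median of -0.40. The 4 with the smallest p were matn1 (-0.60), col9a1b (-0.67), col11a1b (-0.56) and col11a2 (-0.73). Among all tested genes, 3.31% were called lower and 2.88% higher. At an unadjusted p under 0.05 the canal list had 6 lower and 0 higher. The cartilage list had 15 lower and 0 higher at that threshold. The cartilage count dropped to 7 when control library 2 was left out, and to 8 for control library 3 or morpholino library 1. The 8 without control library 3 include a gene that is not among the 13. The summed TPM of the cartilage list was 2519 to 2740 in controls and 1853 to 2046 in morpholino larvae, and its part in the lower tecta, otoa and cdh11 was not tested.

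Markers of the cells that make or touch the matrix did not pass the test. Of 30 tested hair cell genes 0 were called in edgeR, DESeq2 or limma, and at an unadjusted p under 0.05 there were 6 higher and 2 lower of 30, beside the 10.5% and 11.3% of all tested genes, with a median of 0.18. The smallest p were those of espnlb (0.66 ± 0.19, edgeR adjusted p = 0.0694) and tmc2b (0.76 ± 0.22, adjusted p = 0.0705). Without control library 1 the count was 1. The summed TPM of the 33 hair cell genes in the table was 249 to 280 in controls and 241 to 254 in morpholino larvae, and these ranges overlapped. This sum leans on s100t, which averaged 111 ± 8.07 TPM in controls and 98.2 ± 4.27 in morpholino larvae (SD). Of 24 tested otic epithelium genes 0 were called by the same 3 tools, with 2 higher and 5 lower of 24 at an unadjusted p under 0.05 and a median of -0.08. dlx3b stood at 0.39 ± 0.13 and sox10 at -0.29 ± 0.10, with edgeR adjusted p of 0.0993 and 0.123. The summed TPM of this list also overlapped, at 245 to 262 and 240 to 250. The part of these cell types in the lower tecta was not tested.

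The otogelins resemble secreted mucins, so those were read as well. Of 7 tested genes of gel-forming mucins and von Willebrand factor 1 rose and 0 fell, with a median of 0.28, and DESeq2 and limma called the same numbers. At an unadjusted p under 0.05 there were 2 higher and 1 lower. muc5.1 rose from 224, 211 and 210 CPM in controls to 298, 331 and 282 in morpholino larvae, with no overlap, by 0.50 ± 0.07 on the log2 scale (edgeR adjusted p = 0.00337).

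**Figure D5:**
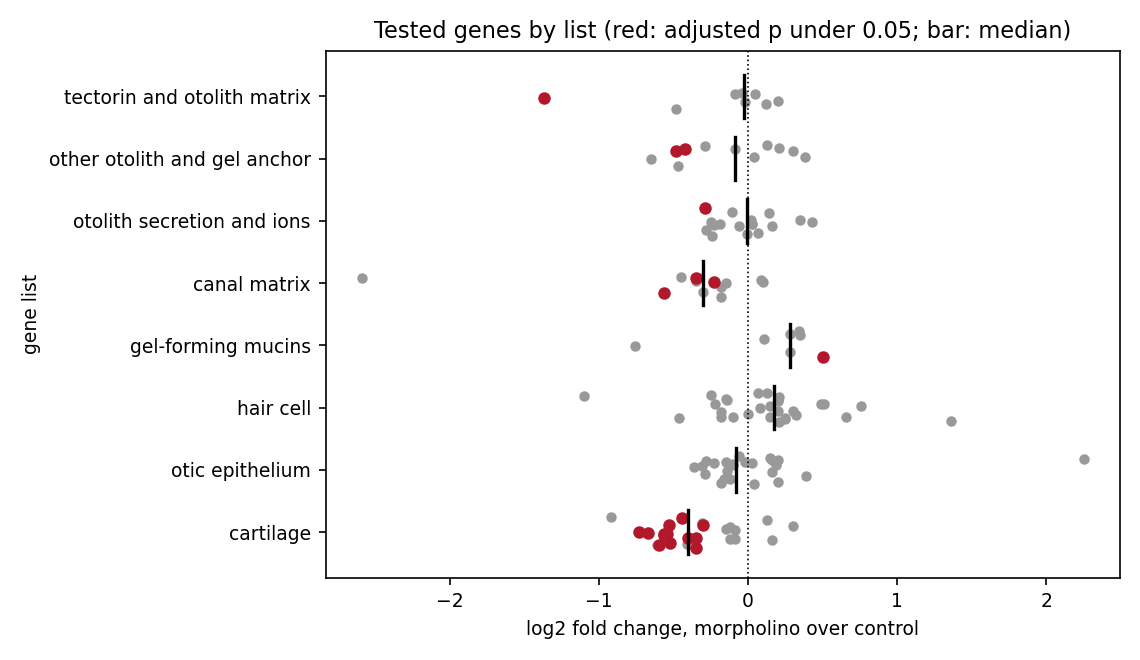
Log2 fold change, morpholino over control, of each tested gene by list, with called genes in red and the median of each list as a bar; vertical scatter within a list has no meaning. The tectorin and otolith matrix genes centre on -0.03 with tecta apart at -1.37, and the cartilage list centres on -0.40.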

How the data were processed

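The data were poly-A RNA libraries of 3 control and 3 morpholino groups of whole larvae. Read counts per row were deposited by the authors as whole numbers, not normalized. The deposited TPM values are scaled by row length to 1000000 per library, and the deposited FPKM values are counts scaled by length and depth. Counts divided by FPKM gave 1 length per row over all 6 libraries, so FPKM was not tested. The submitters' processing notes name GRCz11, HISAT2, RSEM and StringTie 1.3.1 without their roles. Strand handling is not stated in the labels. Positions are those of the deposited table. Of 53709 rows, 16024 carry a suffix and no position; they were taken as copies of a gene from the name alone, and reads may be split between them.

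Counts were summed per gene and tested with edgeR 4.0.16 in R 4.3.3 (filterByExpr with min.count 10 and min.total.count 15, TMM, robust quasi-likelihood fit, no covariate, Benjamini-Hochberg over 22247 genes). SE is the log2 fold change divided by the root of the F statistic, and 95% intervals are per gene and unadjusted. The code was tested on simulated data. Intervals and p-values rest on 3 libraries per group. Alternatives used DESeq2 1.42.0, limma 3.58.1 on log2(TPM + 1) or log2(TPM + 0.1), other scalings and filters, rows as deposited, a replicate block and each library left out. The set and the lists were chosen with earlier results of these data known. Named genes are every gene of the set and, of each list, up to 4 called genes by smallest adjusted p, or the 2 with the smallest p where none was called, then the 5 genes most correlated with a called gene of the set. Named outside this rule, after values were seen, are the uncalled genes of the otolith list, atoh1a, s100t and the 3 tested neighbours of tecta on each side. gjb8 was named as a candidate target of the morpholino, not matched by sequence. List symbols were matched directly or through RefSeq synonyms (GRCz12tu, names only). Some genes, such as strc1 and matn4, belong to different lists at once, so the lists are not independent. No sequence of a gene was used here.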

Additional observations from a re-analysis of the deposited data

How the results depend on the processing

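The drop of tecta kept its direction in all 15 alternatives and its call in 12; over the 9 that kept all libraries, adjusted p ranged from 1.92e-07 (DESeq2) to 0.0261 (limma on log2(TPM + 1), which also gave the smallest change, -0.93). The number of called genes of the set was 0 to 1 with a library left out. Read as deposited rows, otogl turned to 0.07 and zpld1a to 0.30; the first row held only part of each gene's counts. With a library left out, otomp ranged from -0.09 to 0.06, otop1 from -0.08 to 0.18 and zpld1a from -0.24 to 0.11, all uncalled. Among all genes, 579 to 1070 were called with a library left out and 2049 rows (of 24652) as deposited. The secretion and ion list had 0 calls with rows as deposited and in limma with either pseudocount, and 0 to 1 with a library left out. The canal list had 1 call in limma with either pseudocount and 0 to 2 with a library left out. Left-out ranges were 7 to 13 for cartilage and 0 to 1 for hair cells. Whether libraries with the same replicate number form pairs is not known. Same-numbered libraries deviated with correlations of -0.03, 0.05 and -0.01, and differently numbered ones with correlations between -0.06 and 0.07. These values cannot settle the pairing with 3 libraries per group. With the replicate block 1362 genes were called, tecta stood at -1.33 (edgeR adjusted p = 0.00202) and 1 otic epithelium gene was called. The cause of these shifts was not tested. Depth limits oc90, with 3 to 15 counts per library, and otogl, zpld1a and otop1, with under 100 in every library. tectb held 89 counts in control library 1, and tecta held 98 in morpholino library 3.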
